A study of Homo sapiens with 20 samples.

Results

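The promoters of the cytoplasmic ribosomal protein (RP) genes were examined in a ChIP-seq series of cohesin and CTCF in melanoma cells. Members were all protein-coding genes on chromosomes 1 to 22 and X of the hg19 (GRCh37) GENCODE annotation whose symbol is RPL or RPS with a number, with an optional A, L, AL or X, together with RPSA, RPLP0, RPLP1 and RPLP2. This rule found 82 genes among 20098 protein-coding genes, 50 named for the large and 32 for the small ribosomal subunit, on 21 chromosomes. A promoter had a peak when a deposited peak touched the window from 1 kb before to 1 kb after the gene start.

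The cells were M14, an established human melanoma line carrying a doxycycline-inducible short hairpin RNA (shRNA) against STAG2. In the WT groups STAG2 was present, and in the STAG2-KD groups the shRNA was induced, with 5 days of doxycycline given in the labels of replicate 1 only. Each condition was profiled with antibodies against STAG1, STAG2, CTCF and SMC1A in 2 replicates, which gave 16 peak lists, and the 4 inputs served as controls for peak calling. All groups shared the same line and the same construct, so they describe 1 cell line and 1 means of depletion.

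Cohesin is a ring of SMC1A, SMC3 and RAD21 that holds 1 of the closely related subunits STAG1 or STAG2, and it extrudes chromatin into loops. CTCF is a zinc-finger protein that stops cohesin at oriented DNA sites, so that both are often found at the same place. RP genes encode the protein parts of the ribosome; they are among the most highly transcribed genes of growing cells, and their messages begin at a pyrimidine-rich initiator, the TCT element, which also gives them the 5′ terminal oligopyrimidine (TOP) tract that ties their translation to growth signals.

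The start regions of 3 members are shown, chosen because they carried peaks in all 12 cohesin lists and in no CTCF list. RPL8 also met this rule and is not shown. Each run below has 80 bases before and 20 bases from the start of the canonical transcript (GRCh37), written along the gene, with the words TCTTTC or TCTTTT or CCTTTC or CCTTTT in capitals where they lay within 50 bases of the start. In RPS10 and RPS13 the word in capitals begins at the start, and in RPL23 both such words lie before it. 
RPL23, chr17:37009955-37010054, minus strand: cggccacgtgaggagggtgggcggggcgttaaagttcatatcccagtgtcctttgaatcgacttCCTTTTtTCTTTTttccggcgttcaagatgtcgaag
RPS10, chr6:34393827-34393926, minus strand: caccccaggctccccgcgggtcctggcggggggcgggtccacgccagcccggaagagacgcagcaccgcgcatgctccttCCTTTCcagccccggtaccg
RPS13, chr11:17099195-17099294, minus strand: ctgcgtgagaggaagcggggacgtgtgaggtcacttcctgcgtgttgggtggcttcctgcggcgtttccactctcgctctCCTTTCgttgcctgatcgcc

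A TCT word stood within 50 bases of the canonical start, on the sense strand, in 65 of 82 RP promoters (79.3%) and in 9.93% of the other protein-coding promoters. The share was 88.9% among 18 other TOP genes and 14.1% among 78 genes of mitochondrial RPs. In the window from 250 bases before to 50 after the start, searched on both strands, the ETS word CCGGAAG was in 34.1% of RP promoters and 13.9% of the others, and the YY1 word GATGGCG was in 20.7% and 5.76%. The SP1 word GGGCGG was in 62.2% of RP promoters and 61.0% of the others, and TATAAA on the sense strand was in 4 RP promoters, those of RPL10L, RPLP0, RPS2 and RPS28 (4.88%, against 7.15% of the others). A match describes letters in the window and not a bound site.

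The lists differed in sensitivity between replicates, and this enters each result below. The fragments expected over a position of background, as recovered from fold enrichment and p-values, were 0.897 to 1.81 for the libraries of replicate 1, while those of replicate 2 were deeper at 2.08 to 3.64. Replicate 1 was limited by q-value and replicate 2 by p-value, and the libraries were extracted and size-selected by different protocols. STAG2 lists held 79115 and 119021 peaks in WT and 58521 and 106203 in STAG2-KD, so fewer peaks were called for the targeted protein after induction in both replicates. Of 7 melanocyte genes used to check the cell type (PMEL, MLANA, TYR, DCT, TYRP1, SOX10 and MITF), 6 had a peak at the promoter in at least 1 list, and TYRP1 had none. Of 8 genes of other cell types, 1 did, GFAP, with peaks in all 16 lists. Among all 20098 protein-coding promoters, 5616 had no peak in any list. A peak at 6 of 7 melanocyte genes therefore does not by itself mark the cell type.

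RP promoters carried cohesin peaks more often than other promoters did. SMC1A, the cohesin ring subunit, had a peak at 62 and 72 of 82 RP promoters in WT (replicates 1 and 2) and at 67 and 75 in STAG2-KD. STAG2 was found at 59 and 71 in WT and at 64 and 71 in STAG2-KD. STAG1 was found at 45 and 66 in WT and at 53 and 62 in STAG2-KD. CTCF was found at 47 and 54 in WT and at 44 and 50 in STAG2-KD. In every one of the 16 lists the share was above that of the other protein-coding promoters, by 4.90 percentage points (CTCF, STAG2-KD, replicate 2) to 35.2 points (STAG2, STAG2-KD, replicate 1). The plot of shares by library shows both levels.

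**Figure D1:**
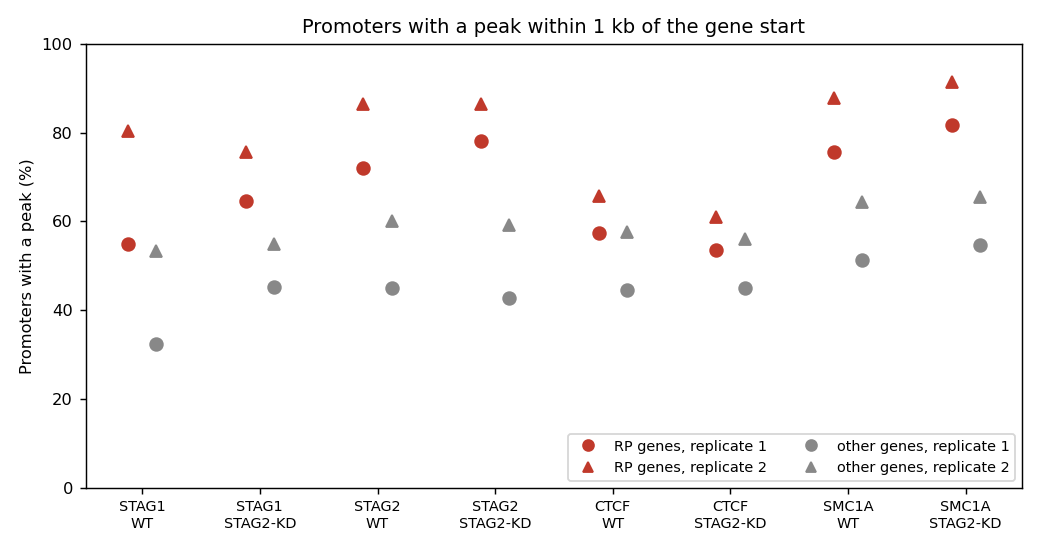
Percentage of promoters with a peak, by antibody and condition, for 82 RP genes (red) and the other protein-coding genes (grey); circles are replicate 1 and triangles replicate 2. RP genes lie above the other genes in all 16 lists, with the smallest distance, 4.90 points, for CTCF in STAG2-KD replicate 2.

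Averaged over the 4 libraries of an antibody, 84.1% ± 6.97 (SD, n = 4) of RP promoters had SMC1A, 80.8% ± 7.14 had STAG2, 68.9% ± 11.5 had STAG1 and 59.5% ± 5.21 had CTCF. The corresponding shares of other promoters were 59.0% ± 7.05, 51.8% ± 9.07, 46.5% ± 10.3 and 50.8% ± 6.99. The libraries of SMC1A (75.6% to 91.5%) and STAG2 (72.0% to 86.6%) did not overlap those of CTCF (53.7% to 65.9%). In a two-sided exact permutation test of 4 against 4 libraries, CTCF differed from SMC1A by 24.7 points and from STAG2 by 21.3 points, each with p = 0.0286, the smallest p this design can give; after Benjamini-Hochberg adjustment over 6 pairs of antibodies the adjusted p was 0.0857 for both, which missed the 0.05 threshold. The other 4 pairs had adjusted p from 0.171 to 0.571 in the same exact test. The permutation did not match libraries by condition and replicate. Within matched libraries the RP share of STAG1 was below that of STAG2 and of SMC1A in 4 of 4, and that of STAG2 below that of SMC1A in 4 of 4. Among the other promoters no pair of antibodies had an adjusted p below 0.457.

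The distance between RP and other promoters, in percentage points, was 29.0 ± 4.14 for STAG2, 25.1 ± 1.62 for SMC1A, 22.4 ± 3.37 for STAG1 and 8.65 ± 3.25 for CTCF (SD, n = 4). The CTCF libraries lay below all those of each cohesin subunit. Each of the 3 comparisons with CTCF gave p = 0.0286 and an adjusted p of 0.0571 by the exact permutation test. The 3 comparisons among cohesin subunits gave adjusted p from 0.103 to 0.229.

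Genes with related roles had similar shares. Mitochondrial RP genes had SMC1A at 86.9% ± 6.89 and STAG2 at 80.4% ± 11.1 of 78 promoters (SD over 4 libraries). Translation factors had SMC1A at 81.3% ± 7.24 and ribosome assembly genes at 85.0% ± 13.5 of 68 and 30 promoters. The 18 other TOP genes, which held the TCT word about as often as RP genes, had lower values, 69.4% ± 14.7 for SMC1A and 62.5% ± 18.4 for STAG2. These differences were not tested.

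Of the 82 RP promoters, 28 (34.1%) had a peak in all 16 lists and 5 (6.10%) in none, against 22.7% and 28.0% of the other promoters. The promoters of the large subunit had a peak in a median of 14 lists and those of the small subunit in 12. The heat map of strength by member and list shows each of them. CTCF was missing from all 4 of its lists at 21 RP promoters, STAG1 at 12, STAG2 at 8 and SMC1A at 5.

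**Figure D2:**
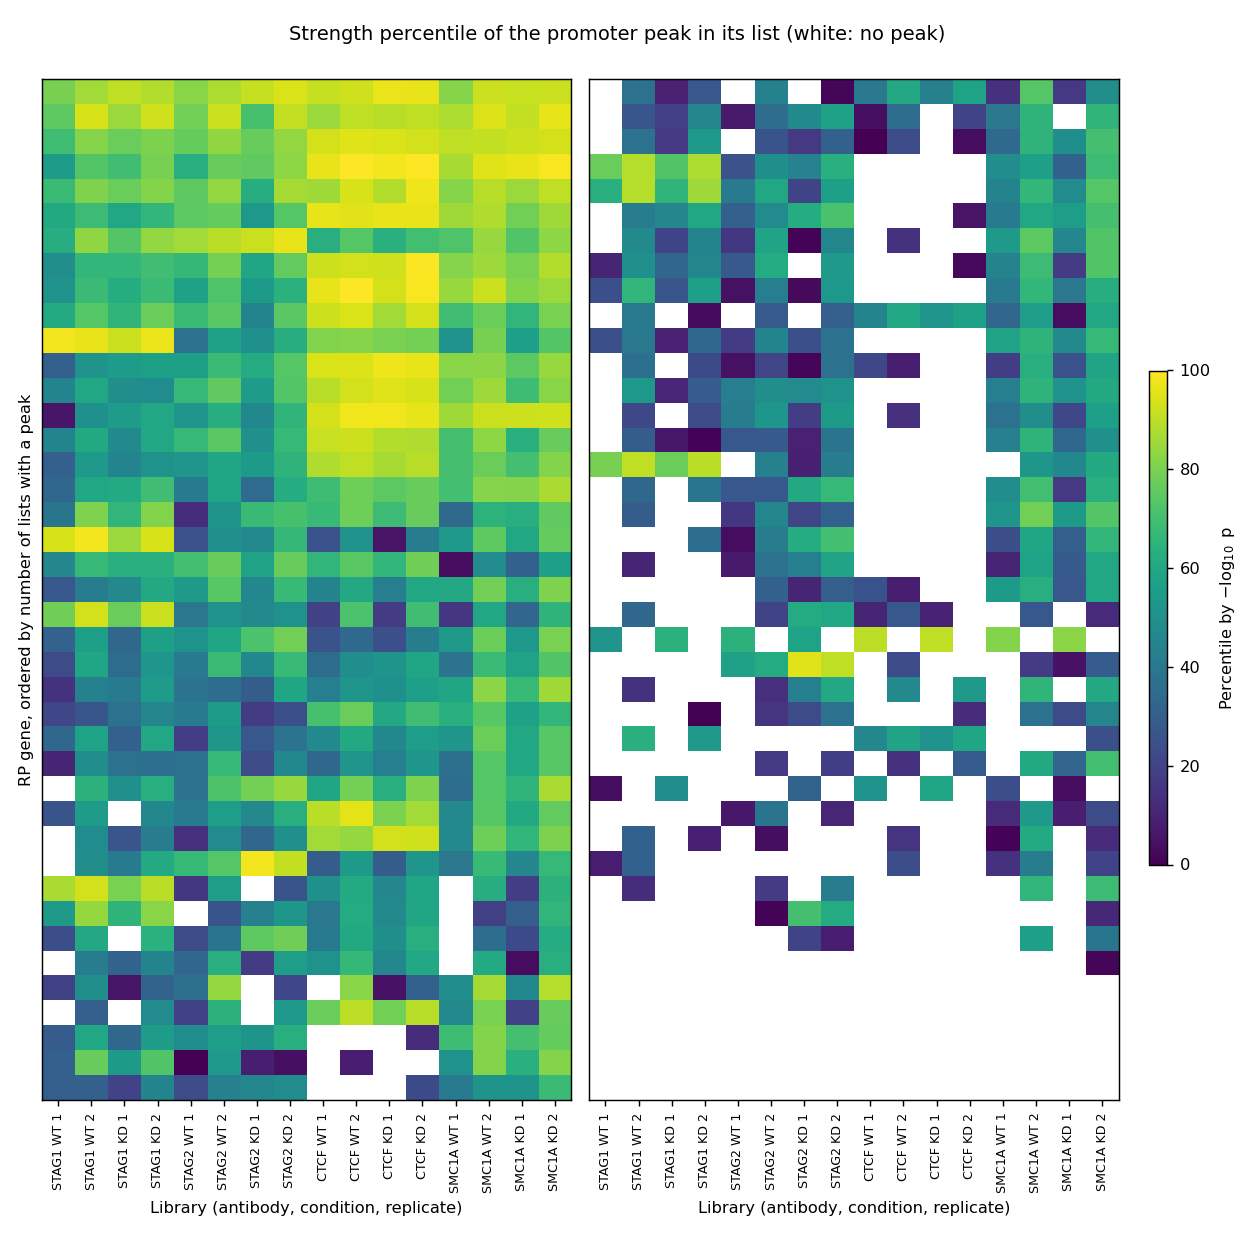
Strength percentile of the promoter peak within its own list, ranked by −log10 p, for 82 RP genes (rows, unlabelled and ordered by the number of lists with a peak) in 16 libraries (columns); white marks no peak. The first 28 genes have a peak in every list, and the 5 at the bottom have none.

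The strongest peaks lay at different members for each antibody. Fold enrichment, the pileup at the summit over the background expected from the input, is given for WT replicates 1 and 2 and then STAG2-KD replicates 1 and 2. The 5 leading members per antibody were ranked by their mean percentile over its 4 lists. CTCF was strongest at RPL26, where it was 98.3 and 56.3 in WT and 102 and 74.4 in STAG2-KD, with a mean percentile of 98.7 ± 1.45 (SD, n = 4). RPLP0, which encodes the base of the ribosomal stalk, followed with 87.3 and 60.9 in WT and 67.6 and 44.02 in STAG2-KD. RPL38, RPL5 and RPS15 completed the list, with mean percentiles of 96.4, 96.2 and 95.8. The CTCF summits of all 5 lay between −200 and −3 bases from the gene start in every list.

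The sequences at these CTCF summits are shown because these 5 members led the ranking for CTCF, the one factor here that binds its own DNA sequence. Each run covers 30 bases on both sides of the mean WT summit on the plus strand of GRCh37, with the CTCF core words AGATGGC or AGAGGGC or AGGTGGC or AGGGGGC, or their reverse complements, in capitals.
RPL26, chr17:8286654-8286714: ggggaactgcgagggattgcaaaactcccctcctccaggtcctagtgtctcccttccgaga
RPLP0, chr12:120639138-120639198: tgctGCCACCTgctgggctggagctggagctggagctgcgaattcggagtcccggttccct
RPL38, chr17:72199668-72199728: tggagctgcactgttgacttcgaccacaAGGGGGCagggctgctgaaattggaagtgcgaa
RPL5, chr1:93297475-93297535: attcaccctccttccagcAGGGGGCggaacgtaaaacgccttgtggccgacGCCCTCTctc
RPS15, chr19:1438274-1438334: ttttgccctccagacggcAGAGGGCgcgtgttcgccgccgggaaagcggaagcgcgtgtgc
A core word stood in 4 of the 5 runs and not in that of RPL26. Within 50 bases of the CTCF summit, a core word was found at 25.5% to 29.5% of the RP peaks over the 4 CTCF lists and at 27.0% to 32.5% of the peaks at other promoters. Among peaks above percentile 75 of their list by strength, the shares were 30.4% to 42.1% for RP and 46.5% to 52.7% for other promoters. Median CTCF fold enrichment was nonetheless higher at RP promoters that had a peak, 27.0 and 14.5 in WT against 13.0 and 8.60 over all promoters with a peak. It was higher still in WT at ribosome assembly genes, 32.7 and 22.5 over 17 and 23 promoters with a peak. Mitochondrial RP genes, translation factors and other TOP genes had lower medians than RP genes in both WT lists. These medians were not tested, and a high CTCF median was not particular to RP genes.

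SMC1A was strongest at RPL26 (fold enrichment 26.2 and 21.0 in WT, 52.3 and 39.2 in STAG2-KD), RPS26, RPL38 and RPL10A, described here of its 5 leading members. Counted from the gene start, its summit at RPL26 lay at −386 to −367 bases over the 4 lists, and the CTCF summit at −200 to −121. STAG2 was strongest at RPS28 (40.8 and 22.2 in WT, 43.7 and 29.7 in STAG2-KD), RPL10A, RPS26 and RPL12, likewise of 5. RPL10A and RPS26 were thus among the 5 strongest for both SMC1A and STAG2. The windows of RPS28 and RPL12 also hold the starts of NDUFA7 and LRSAM1.

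STAG1 was strongest at RPL6 (56.0 and 23.7 in WT, 52.3 and 26.5 in STAG2-KD), RPL18 (52.8 and 30.05, then 40.6 and 24.0), RPL9, RPS26 and RPL10A. The gene start of RPL6 in this annotation lies 9233 bases from its canonical transcript start and within 1 kb of the start of PTPN11, and that of RPL18 within 1 kb of SPHK2 and that of RPL9 within 1 kb of LIAS, so these peaks cannot be assigned to the RP gene alone. In all, 18 members had another protein-coding gene start in their window, and 9 had a canonical start over 1 kb away.

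A few members had few or no peaks. RPL36, RPL39L, RPL3L, RPL4 and RPS18 had no peak in any list. For RPL36, RPL4 and RPL39L the gene start lay 15348, 19677 and 41412 bases from the canonical start. A window at the canonical start, an alternative chosen after the data were seen, had peaks in 16, 11 and 16 lists for these genes, so their absence rested on the annotated start. At RPL3L, a paralog of RPL3 used in striated muscle, neither start had a peak, and at RPS18 both starts are the same. RPS18 lies in the major histocompatibility complex at chr6:33239852, in a window shared with the start of VPS52, and 11 of the 22 other protein-coding promoters within 250 kb also had no peak in any list.

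At the annotated gene start, RPL10 had peaks in replicate 1 only. In that replicate its CTCF fold enrichment was 15.8 (WT) and 24.0 (STAG2-KD) and its SMC1A 4.95 and 3.77. The same window had no peak in the 8 lists of replicate 2. The canonical start lies 8403 bases away, and a window there had peaks in all 16 lists, so the absence rested on the annotated start. Of the 31-base words in the window at the gene start 96.9% also occurred elsewhere in the genome, against a median of 9.59% over members. The part of repeated sequence in this gap was not tested. RPL34, at 0% repeated words, and RPS9, at 21.3%, differed between replicates in the other direction.

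Further members lacking a peak in at least 8 lists included RPS24 (peaks in 1 list), RPL17 and RPL35A (4 lists), RPS9 (5 lists), RPL30 (6 lists), RPL19, RPL34, RPS25 and RPS3 (7 lists), and RPL7A and RPS23 (8 lists). RPS24 had a single peak, SMC1A in STAG2-KD replicate 2, with a fold enrichment of 2.06. RPS3 was the only member with CTCF in both WT lists (9.42 and 8.39) and SMC1A in neither. RPS9 had peaks in replicate 2 alone, in 5 of its 8 lists, and RPL34, RPS25 and RPL7A had 1 list in replicate 1 and 6, 6 and 7 in replicate 2.

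Of the paralogs, RPL10L and RPS27L had peaks in all 16 lists and RPL36AL, which shares its window with MGAT2, in 13. Among the near neighbours of the rule, RPL22L1 and RPL26L1 had peaks in all 16 lists and RPL7L1 in 14.

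Some RP promoters carried cohesin without CTCF. SMC1A and STAG2 were both present in both WT lists at 54 RP promoters (65.9%), against 41.5% of the others. At 15 of these 54 (27.8%) neither WT list of CTCF had a peak, against 7.04% of 8315 other promoters with the same cohesin peaks. Of all 82 RP promoters the 15 make up 18.3%, and the corresponding share was 8.97% for mitochondrial RP genes, 7.35% for translation factors, 6.67% for ribosome assembly genes, 5.56% for other TOP genes and 2.92% for all other protein-coding genes. These shares are descriptions of the lists and were not tested. The standing of RP genes depended on the peak threshold. With a −log10 q of at least 5 the count fell to 7 of 82 (8.54%), below mitochondrial RP genes (10.3%), translation factors (10.3%) and other TOP genes (11.1%) and above ribosome assembly genes (6.67%) and all other genes (4.02%). Of the promoters with cohesin at that threshold, CTCF was missing at 7 of 37 RP promoters (18.9%) and at 12.7% of the others.

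**Figure D3:**
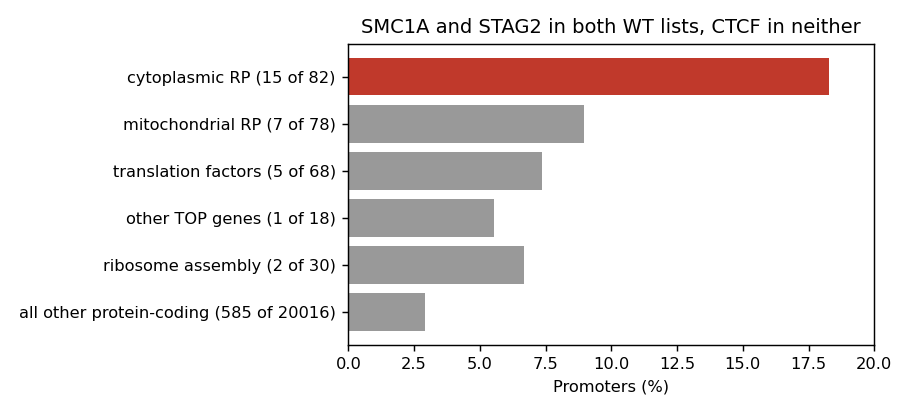
Percentage of promoters (horizontal axis) with SMC1A and STAG2 peaks in both WT lists and a CTCF peak in neither, for RP genes (red) and 5 comparison lists (grey), with counts in the labels. RP genes stand at 18.3% and the other lists at 2.92% to 8.97% with the peaks as deposited; at a −log10 q of at least 5, not drawn, RP genes are at 8.54% and the others at 4.02% to 11.1%.

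The 15 members included RPL19, RPL21, RPL23, RPL37, RPL41, RPL8, RPS10, RPS12, RPS13, RPS15A, RPS27, RPS27A, RPS6 and RPS7. RPS27A encodes a fusion of ubiquitin with a ribosomal protein, and RPS6 is the substrate of S6 kinase. The nearest CTCF summit lay at a median of 6498 bases from the gene start in replicate 1 and 3868 in replicate 2, and over 10 kb away in both for 3 members (RPL21, RPS10 and RPS13). At the 585 other promoters of the same kind CTCF lay farther away, with medians of 9292 and 6098 bases and 201 (34.4%) over 10 kb. Cohesin peaks at these promoters were of modest strength: the median fold enrichment of the 15 ran from 4.08 to 5.67 over the 4 WT lists, against 7.32 to 8.16 at the 35 RP promoters that also had CTCF in both WT lists. The same contrast was seen at other promoters, with medians of 4.58 to 5.56 without CTCF and 8.14 to 8.85 with it.

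At RPL23, SMC1A was 5.74 and 4.22 in WT and 6.44 and 6.79 in STAG2-KD, STAG2 was 6.67 and 5.80 and then 4.22 and 5.35, and CTCF had no peak in any list. At RPS13, SMC1A was 5.60 and 4.66 in WT and 5.78 and 4.77 in STAG2-KD, with STAG2 at 3.65 and 3.64 and then 2.88 and 5.27. At RPS10, SMC1A was 8.29 and 4.08 in WT and 6.43 and 4.66 in STAG2-KD. WT and STAG2-KD overlapped for SMC1A at RPS10 and RPS13. RPL8 was the fourth member with all 12 cohesin lists and no CTCF list; such promoters made up 4.88% of RP genes and 0.500% of the others. Of the 15 start regions 13 held a TCT word and 6 a CTCF core word, shares of 86.7% and 40.0%, against 77.5% and 37.5% of the 40 RP promoters with CTCF in all 4 lists.

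The comparison of STAG2-KD with WT asked whether depletion of STAG2 moved cohesin or CTCF at RP promoters. The mean share of RP promoters with a peak, STAG2-KD minus WT, was 2.44 points for STAG1. It was 3.05 points for STAG2, −4.27 points for CTCF and 4.88 points for SMC1A. With 2 libraries a group the exact permutation test cannot give a p below 0.333, and the p values ran from 0.667 to 1. The STAG1 difference had opposite signs in the replicates, 9.76 and −4.88 points. SMC1A was higher in both, by 6.10 and 3.66 points, and CTCF lower in both, by −3.66 and −4.88 points. All 4 differences were smaller than the difference between the replicates within a condition.

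Few RP promoters lost or gained a peak in both replicates. STAG1 was lost at 1 of the 43 RP promoters that had it in both WT lists, RPL30 (4.32 and 3.74 in WT), against a background of 0.607% of all promoters, and gained at 0 of 14 (background 3.46%). STAG2 was lost at 0 of 58 (background 0.857%) and gained at 1 of 10, RPL35A (4.14 and 1.96 in STAG2-KD; background 1.34%). CTCF was lost at 2 of 45, RPS16 (6.51 and 2.71 in WT) and RPL14 (5.92 and 2.71), against a background of 1.63%, and gained at 0 of 26 (background 1.13%). SMC1A was lost at 0 of 60 (background 0.469%) and gained at 0 of 8 (background 1.57%). The peaks at these 4 members were weak, and the counts of 0 to 2 members were not tested against the background. With a stricter threshold, a −log10 q of at least 5, STAG2 was gained at 6 of 22 RP promoters (27.3%), against 4.202% of all promoters, so the count of STAG2 gains depended on the threshold.

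The same window around the mean WT summit of the 2 lost CTCF peaks, shown beside the strong sites, held no core word on the plus strand or its complement. The RPL14 run lies between its WT summits, chr3:40498945 in replicate 1 and chr3:40499083 in replicate 2, and contains neither. Of all RP CTCF peaks, only 25.5% to 29.5% had a core word within 50 bases of the summit.
RPL14, chr3:40498984-40499044: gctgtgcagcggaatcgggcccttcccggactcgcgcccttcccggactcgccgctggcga
RPS16, chr19:39926637-39926697: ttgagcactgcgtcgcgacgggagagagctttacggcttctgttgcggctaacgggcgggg

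Within replicates the counts were larger and differed. STAG2 gained a peak at 10 of 23 RP promoters without one in WT replicate 1 (43.5%, against 9.11% over all promoters) and at 1 of 11 in replicate 2 (9.09%, against 6.15%). The 10 gaining members included RPL10, RPL13A, RPL17, RPL24, RPL35A, RPL7A, RPS16, RPS21 and RPS23. RPL17 was the strongest, with a STAG2 fold enrichment of 16.8 in STAG2-KD replicate 1 and no peak in WT replicate 1, and replicate 2 went from 2.08 to 5.30. SMC1A gained a peak at 8 of 20 in replicate 1 (40.0%, against 13.8%) and at 3 of 10 in replicate 2 (against 8.75% over all promoters), with no gene in common between the replicates.

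Peak strength was compared next. At promoters with a peak in all 4 lists of an antibody, log2 fold enrichment, centred on the median promoter of each library, was compared with limma and Benjamini-Hochberg adjustment over all such promoters. Each list gave the peak of lowest p in the window, so the peaks compared at a promoter can lie at different positions. STAG2 had the highest median. Over 53 RP promoters the median log2 change was 0.16, with 0.29 in replicate 1 and 0.30 in replicate 2, against −0.09 over all 7566 promoters (−0.12 and −0.05 by replicate). The lower and upper quartiles of the RP changes were −0.26 and 0.71, so members differed. The STAG1 median was −0.21 over 40 RP promoters (−0.22 and −0.09 by replicate) against −0.08 over all. The CTCF median was 0.01 over 40 (−0.08 and −0.01) against −0.07, and the SMC1A median 0.05 over 57 (0.03 and 0.15) against 0.03. Without centring the STAG1 median was 0.05 and that of all promoters 0.17, so the sign of the STAG1 change depended on the scaling, although RP promoters stayed below the rest on both scales; the STAG2 median was 0.15 without centring and −0.09 over all.

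Without the replicate in the model, limma called no promoter for any antibody: 0% of 6178 promoters for STAG1, 0% of 7566 for STAG2, 0% of 8006 for CTCF and 0% of 9603 for SMC1A had an adjusted p below 0.05. At an unadjusted p below 0.05 limma counted 13 of 53 RP promoters for STAG2, all of them higher in STAG2-KD, against 15.4% of all promoters; the counts were 3 of 40 for STAG1, 2 of 40 for CTCF and 5 of 57 for SMC1A, and over all promoters 346 (STAG1), 1162 (STAG2), 464 (CTCF) and 1209 (SMC1A). In data simulated with the replicate offsets of these libraries this model found none of 100 promoters changed by 1 on the log2 scale for any antibody.

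The replicate was next taken as a block, because the labels give separate protocols for the replicate numbers. Fitted to 4 libraries per antibody, this model leaves almost no residual degrees of freedom for a single promoter. Its standard errors and calls therefore rest largely on the variance pooled over promoters. With this block, the centred STAG2 fold enrichment rose at 12 of 53 RP promoters and fell at 0. The rise is relative to the median promoter of each library, and only promoters with a peak in every STAG2 list were fitted. A fold over background within each library cannot show whether more STAG2 was bound. The paper reports many more STAG2 peaks losing than gaining binding after knockdown. The background over all promoters was 7.03% higher and 5.43% lower, and the 12 make up 22.6% of the RP promoters fitted. SMC1A rose at 2 of 57, RPS19 and RPL26, and fell at 0 (background 2.77% higher and 1.53% lower). STAG1 was called at 0 of 40 (1.13% higher and 1.88% lower), with 9 at an unadjusted p below 0.05 where 17.2% of all promoters had one, and CTCF at 0 of 40 (0.0125% higher and 0% lower), with 7 where 21.2% had one. The plot of changes by replicate shows the called members.

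**Figure D4:**
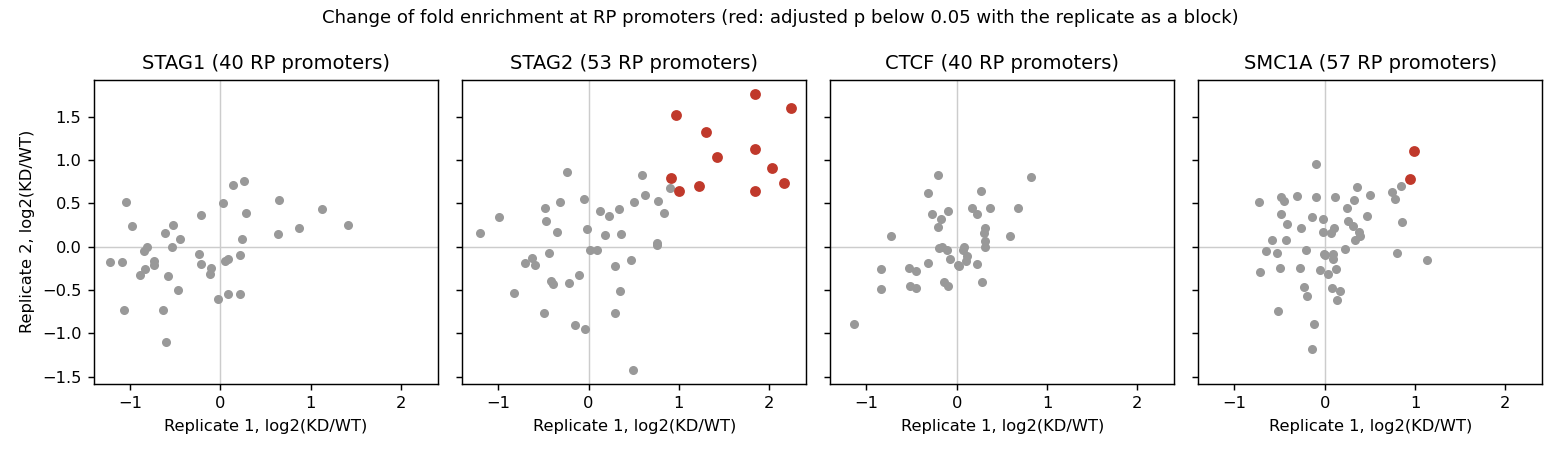
Change of log2 fold enrichment, STAG2-KD over WT, in replicate 1 (horizontal) and replicate 2 (vertical), 1 point per RP promoter and 1 panel per antibody; red points have an adjusted p below 0.05 with the replicate as a block (limma). Red points are found for STAG2 (12) and SMC1A (2), all above 0 in both replicates.

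Among the members with a large STAG2 rise was RPL23A, a protein of the large subunit, where fold enrichment was 5.31 and 3.40 in WT and 18.7 and 11.7 in STAG2-KD. The log2 change was 1.80 with a standard error of 0.26 in the blocked fit (limma, adjusted p = 0.00037) and of 0.37 without the block (limma, adjusted p = 0.18). RPS6 had 3.87 and 4.50 in WT and 13.6 and 9.90 in STAG2-KD, a log2 change of 1.48 ± 0.27 (limma with the block, adjusted p = 0.0019). In both the STAG2-KD values lay above both WT values. STAG2 summits at RPS6 lay at −571 and −470 bases from the gene start in WT and at −36 and 28 in STAG2-KD. At RPL23A they lay at −436 and −233 in WT and at −68 and 9 in STAG2-KD. The rises at RPS6 and RPL23A thus compare peaks at different positions in the window.

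The 12 also included RPL12 (log2 change 1.47), RPS19 (1.45), RPS15A (1.31), RPS2 (1.25), RPL27A (1.24), RPS27A (1.23), RPS29 (0.96), RPL26 (0.85) and RPS12 (0.82), with adjusted p from 0.0031 to 0.049 in the blocked limma fit. RPL12 reached the highest level, 54.6 and 22.1 in STAG2-KD from 13.6 and 11.6 in WT. RPS19, the gene most often mutated in Diamond-Blackfan anaemia, went from 6.38 and 9.37 to 28.0 and 15.8. All 12 were higher in STAG2-KD in both replicates before and after centring. The small subunit supplied 8 of its 21 members fitted and the large subunit 4 of 32. The 15 members with cohesin and no CTCF in WT supplied 4 of the 12 (RPS12, RPS27A, RPS15A and RPS6) and 13 of the 53 fitted. The peak counted for RPS29 lies 12784 bases from the canonical start, near the start of LRR1, and at the canonical start the log2 change was −0.36. The windows of RPL12, RPL27A and RPS27A also hold the starts of LRSAM1, TRIM66 and CLHC1. Peaks at these members cannot be assigned to the RP gene alone.

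**Figure D5:**
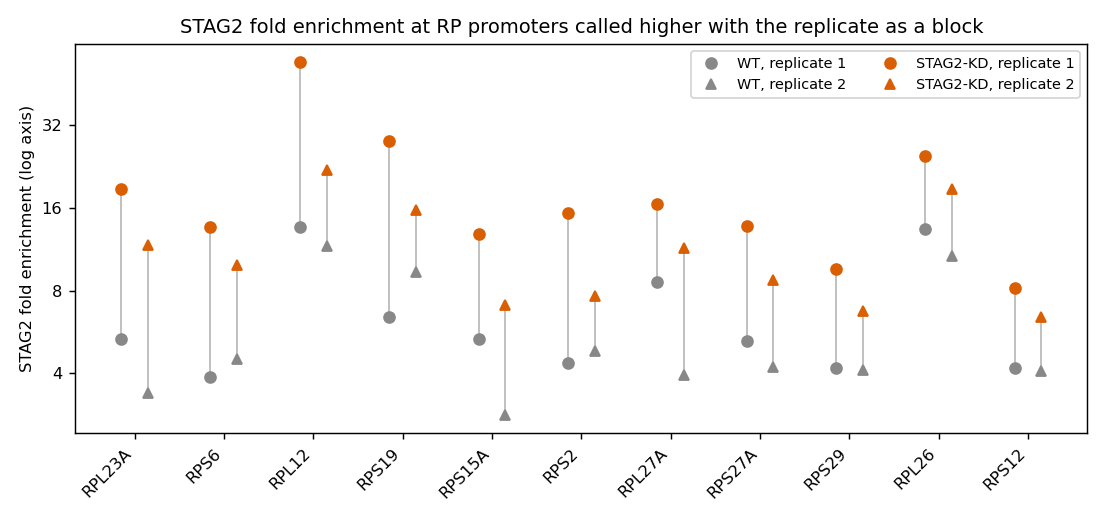
STAG2 fold enrichment (log axis) at 11 of the 12 RP promoters called higher in STAG2-KD with the replicate as a block, in WT (grey) and STAG2-KD (orange), with circles for replicate 1 and triangles for replicate 2. Each orange point lies above the grey point of its replicate, and the lowest STAG2-KD value is 6.42.

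The other antibodies are given side by side at these 12 promoters. SMC1A had peaks in all 4 lists at 9 of them, with log2 changes from −0.51 to 1.04 and a median of 0.21, and 7 of the 9 were above 0, as were 31 of all 57 RP promoters fitted. SMC1A and STAG2 lists of a condition and replicate share an input, so their changes are not independent. CTCF had all 4 lists at 6, with changes from −0.08 to 0.27. STAG1 had all 4 lists at only 3, RPL26 (0.51), RPL27A (−0.45) and RPS2 (0.83). At RPS19 SMC1A was 5.48 and 6.28 in WT and 11.3 and 14.6 in STAG2-KD, a log2 change of 1.04 ± 0.24 (SE; limma with the block, adjusted p = 0.024). At RPL26 the SMC1A change was 0.86 ± 0.24 (limma with the block, adjusted p = 0.045).

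The largest falls of STAG2 with the same sign in both replicates did not pass either fit. RPL11, which binds MDM2 when ribosome assembly is disturbed, had 14.4 and 8.19 in WT and 7.92 and 5.72 in STAG2-KD (log2 change −0.68), followed by RPL10L (−0.63) and RPLP0 (−0.53). RPL11 and RPLP0 were also among the 3 lowest for SMC1A (−0.63 and −0.51), with RPL36AL (−0.66). For STAG1 the lowest were RPL28 (−0.90), RPS13 (−0.85) and RPL13 (−0.70) and the highest RPS2 (0.83), RPL38 (0.78) and RPL7 (0.59). The STAG1 summits of RPL28 lay at 103 and −552 bases from the gene start in WT and at 588 and 108 in STAG2-KD. Those of RPS13 lay at −51 and −125 in WT and at −826 and −105 in STAG2-KD. For CTCF the lowest were RPS3A (−1.01), RPL10L (−0.66) and RPL18 (−0.55) and the highest RPL15 (0.82), RPL10A (0.56) and RPL29 (0.46). CTCF summits at RPL18 lay at −580 and 1508 bases in WT and at −372 and −235 in STAG2-KD. Changes at RPL28, RPS13 and RPL18 thus compare peaks at different positions. RPS3A had CTCF at 83.9 and 58.1 in WT and 42.2 and 31.1 in STAG2-KD, values that did not overlap, with an adjusted p of 0.10 in limma with the block. RPL7 was the third highest for SMC1A (0.77). None of these passed in either fit.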

How the data were processed

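The authors deposited 1 MACS2 narrowPeak list per library, 8 per replicate number, called against input on hg19. The methods name bowtie2, samtools and picard; the labels of replicate 2 also name CASAVA 1.4 and BWA, so its aligner is not settled. Deposited columns used were the fold enrichment (a ratio) and the −log10 p and −log10 q values; the deposited score is 10 times the −log10 q (replicate 1) or −log10 p (replicate 2), truncated, and was not used. Rows off chromosomes 1 to 22, X and Y (0.137% to 4.60%) were left out. Each gene start took the peak of lowest p touching its window of 1 kb on each side by at least 1 bp. Log2 fold enrichment was fitted with limma 3.58.1 (R 4.3.3); shares were compared by exact permutation in SciPy 1.17.1. On simulated data, with the block, limma found 57 to 88 of 100 promoters changed by 1 and all 100 changed by 2 on the log2 scale, with 5 to 14 false calls. The simulated background depth was recovered within 0.16%. Labels do not say that replicates were separate cultures, so p-values may measure technical spread. Replicate numbers were taken as a block because extraction and size selection differ between them; deviations of same-numbered libraries correlated at 0.35 to 0.59 over promoters. Fold change near background is compressed by a pseudocount of the caller, and counting error was not available per peak. The canonical start was taken from the annotation; 279 genes without one kept the gene start. Members, lists and tests were chosen with earlier results of these data known. Genes named were the 5 strongest per antibody, those lost or gained in both replicates, those without a peak in at least 8 lists, the 3 largest rises and falls per antibody with 1 sign in both replicates, and the paralogs; RPL17 and the 12 and 2 called with the block were added after their values were seen. Some members that these rules name are counted but not reported by name here.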

Additional observations from a re-analysis of the deposited data

Results flagged for a closer look

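The excess of RP promoters over other promoters for STAG2 was 35.2 percentage points in STAG2-KD replicate 1. It stood apart from the other 3 STAG2 libraries (26.6 to 27.4 points) by 0.905 of the whole range. Chance alone sets about 1 group in 20 apart in this way. A high share in that library was not particular to RP genes (78.0%, against 42.9% of the others). Mitochondrial RP genes had STAG2 at 79.5% there, ribosome assembly genes at 73.3%, translation factors at 66.2% and other TOP genes at 50.0%. The other flagged values are differences between antibodies in the change from WT to STAG2-KD. In each, both replicates of one antibody moved up and both of the other moved down. None of these differences was tested. For the share of RP promoters with a peak, the change for CTCF was below that for SMC1A by a difference of −9.15 points. For the excess over other promoters, the change for STAG1 minus that for STAG2 was −9.34 points and minus that for SMC1A −7.40 points, the change for STAG2 minus that for CTCF was 8.39 points, and that for CTCF minus that for SMC1A was −6.44 points. For the median log2 change of fold enrichment over RP promoters, the change for STAG1 minus that for STAG2 was −0.37 and minus that for SMC1A −0.26, that for STAG2 minus that for CTCF was 0.15, and that for CTCF minus that for SMC1A was −0.040. The lowest and highest of these medians by replicate, −0.22 for STAG1 and 0.30 for STAG2, are on a scale centred on all promoters.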

How the results depend on the processing

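Of 705 values recomputed under the alternatives, 579 kept their direction and their side of the threshold, 71 newly passed it (each in a fit with the replicate block), 50 moved and 5 reversed. The window at the canonical start, the fits that combine the block with another choice, and the alternatives for counts of members in all or none of the lists or without CTCF were chosen after seeing the data. Reversed were the STAG1 share, STAG2-KD minus WT, without replicate 1 (−4.88 points, range −4.88 to 9.76 when either replicate was left out), the SMC1A excess over other promoters (−2.21) and the STAG1 minus SMC1A excess (0.35) with a −log10 q of at least 5, and RPS29 for STAG2 at the canonical start (−0.36, with and without the block).

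With that stricter threshold the members lost in both replicates were 2 of 36 for STAG1 (0.670% of all promoters), 1 of 44 for STAG2 (2.99%) and 0 of 40 for CTCF (2.80%), and those gained 1 of 27 for STAG1 (4.80%), 6 of 22 for STAG2 (4.202%) and 2 of 16 for SMC1A (4.68%). A window of 500 bp gave 0 lost and 1 gained for STAG1, and requiring the summit in the window gave 1 gained for STAG1. When 1 replicate was left out, so that 1 replicate sufficed, STAG1 was lost at 3 to 6 members and gained at 2 to 11, STAG2 at 1 to 5 and 1 to 10, CTCF at 4 to 9 and 1 to 5, and SMC1A at 0 to 3 and 3 to 8. These counts rise because a change is then needed in fewer lists.

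With the replicate block, STAG2 fold enrichment was higher at 12 of 53 RP promoters (7.03% of all), and at 11 of 53 without centring (6.70%). It was higher at 9 of 40 with the stricter threshold (9.43%, 7 shared with the 12) and at 8 of 51 with 500 bp (4.74%). The counts were 11 of 53 with the summit in the window (7.16%) and 12 of 55 at the canonical start (7.01%, 11 shared). SMC1A was higher at 2, and at 2, 2, 3 and 2 without centring, with the stricter threshold, with the summit in the window and at the canonical start, and lower at 1 with the summit in the window. The calls on peak strength thus rest on the block; leaving out a replicate leaves no residual degrees of freedom, so no call could be made.

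The median log2 change without centring was 0.046 (STAG1), 0.15 (STAG2), 0.074 (CTCF) and 0.13 (SMC1A). For STAG2 it was 0.19 with the stricter threshold, 0.23 with 500 bp, 0.13 with the summit in the window and 0.10 at the canonical start. With 1 replicate left out its STAG1 range was −0.22 to −0.094, its STAG2 range 0.29 to 0.30, its CTCF range −0.082 to −0.0093 and its SMC1A range 0.031 to 0.15. Members with cohesin and no CTCF in WT numbered 7 with the stricter threshold in place of 15. The cause of these shifts was not tested. Counts of reads per peak were not used here, so weak peaks near the threshold carry no counting interval.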

Other observations

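A pattern noticed in the data concerned members where STAG1 stood far above the other cohesin subunits. Among the 35 RP promoters with STAG1 and STAG2 in all 8 lists, STAG1 fold enrichment was at least 2 times that of STAG2 in each of the 4 matched libraries at 5 (14.3%), against 178 of 5346 other promoters (3.33%), and it was also at least 2 times that of SMC1A in each at all 5, as at 136 of the 178 others (76.4%). They were RPL6, RPL18, RPLP2, RPL8 and RPL23. At RPL8 STAG1 was 31.96 and 19.1 in WT and 23.2 and 22.6 in STAG2-KD, where STAG2 was 4.57 and 4.25 and then 8.33 and 6.89. At RPLP2, an acidic protein of the ribosomal stalk, STAG1 was 32.2 and 22.3 in WT and 31.8 and 22.3 in STAG2-KD, where STAG2 was 6.60 and 4.34 and then 7.91 and 3.76. RPL8 and RPL23 had no CTCF peak in any list and the other 3 had CTCF in all 4. The ratios can compare peaks at different positions. At RPL6 the STAG1 summits lay at −86 to −36 bases from the gene start, those of STAG2 at −411 to −329 and those of SMC1A at −419 to −273. The window of RPLP2 also holds the start of PIDD1, and its replicate 2 CTCF summits lay at −1408 (WT) and −1324 (STAG2-KD). No RP promoter showed the opposite ratio, which 0.224% of the others did. The ratio was chosen after the values were seen, fold enrichment of different antibodies is not on a common scale, and no test was made.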
